A study of Rattus norvegicus with 12 samples.

Results

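The rat miRNAs rno-miR-15b, rno-miR-16, rno-miR-195 and rno-miR-497, called miR-15b, miR-16, miR-195 and miR-497 from here on, were examined in soleus, a slow hind limb muscle, of 12 male Sprague-Dawley rats aged 1 year. They were taken by name, without star strands, and are 4 of the 677 rat miRNAs on the array. Control offspring (n = 6), born to dams on a control diet, were compared with HF offspring (n = 6), whose dams ate a high fat diet while pregnant and lactating. All offspring ate standard chow after weaning, and neither their dams nor their litters are given, so rats of 1 litter could be in a group. Total RNA (100 ng) of each rat was labelled with Cy3 and hybridised to 1 Agilent rat miRNA array. The value of a miRNA is its background-subtracted signal in array units, scaled between arrays, and the star strands of the 4 miRNAs were undetected on every array.

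A miRNA recognises its targets mainly through its seed, bases 2 to 8 from the 5′ end, and miRNAs with the same seed can silence the same mRNAs. The miR-15/16 family is known for restraining the cell cycle, through cyclins among others, and for silencing the survival factor BCL2. miR-15b and miR-16 are made from 1 cluster and are abundant in blood cells, whereas miR-195 and miR-497 are made from another and are known for holding cardiac and skeletal muscle cells out of the cell cycle. RefSeq (GRCr8) holds the mature sequences of these 4 miRNAs, shown here 5′ to 3′ with the seed in capitals because the seed is what makes them a family.
miR-15b: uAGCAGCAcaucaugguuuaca
miR-16: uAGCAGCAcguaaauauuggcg
miR-195: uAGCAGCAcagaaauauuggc
miR-497: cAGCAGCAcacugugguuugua

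Of the 724 mature rat miRNAs in RefSeq, 5 carried these bases 2 to 8, namely the 4 above and miR-322. A further miRNA, miR-503, shared bases 2 to 7. Both relatives were on the array and are shown with bases 2 to 8 in capitals, and the names miR-15a and miR-424 were not on it.
miR-322: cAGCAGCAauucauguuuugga
miR-503: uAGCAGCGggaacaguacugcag

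miR-103 carries the same 7 bases starting at its first base, a shifted seed, and so does miR-107. They are shown, with those bases in capitals, as the closest relatives outside the family.
miR-103: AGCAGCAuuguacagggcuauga
miR-107: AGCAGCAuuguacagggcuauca

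The genes lie in pairs. miR-15b is at chr2:155555197-155555218 and miR-16 at chr2:155555343-155555364 (GRCr8, plus strand), with 124 bases between the mature sequences, and both lie within the span of Smc4, a condensin gene. miR-497 is at chr10:55450172-55450193 and miR-195 at chr10:55450509-55450529 (plus strand), with 315 bases between them and no other gene spanning them. The closest sequences, and also the most distant, were from different clusters. miR-16 and miR-195 matched at 19 of 21 bases, with G10A and U11G as the only differences, counted from the 5′ end with the base of miR-16 first. miR-15b and miR-497 matched at 16 of 22 bases, miR-15b and miR-195 at 14 of 21, and miR-16 and miR-497 at 11 of 22, the fewest. The cluster partners lay between, with 14 of 22 for miR-15b with miR-16 and 12 of 21 for miR-195 with miR-497. No array probe sequence was used here, so how far the probes separate miR-16 from miR-195 was not tested.

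Between 177 and 220 miRNAs were detected per array, 162 of them on all 12 arrays, and the 2 slides held 3 rats of each group each. The muscle miRNAs miR-1, miR-133a, miR-133b, miR-206 and miR-499 were detected in all rats. The array of H3, a rat of the HF group, stood apart. miR-499, which lies in a slow myosin gene, was 366 in rat H3 and 4553 to 9137 in the other rats. miR-208b-3p, also of a slow myosin gene, was undetected in rat H3 and detected in the other 11 rats. The sum of the vessel miRNAs miR-126, miR-143 and miR-145 was 4863 in rat H3 and 8811 or more in the others. The slow-fibre miRNAs of rat H3 thus go against soleus, the muscle named in the study's methods, and results are given with and without this rat.

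miR-15b, a member of the chromosome 2 cluster, was detected in all 12 rats. Its scaled signal in control offspring ran from 227 to 393, with a median of 335 (327 ± 60.9, SD, n = 6). In HF offspring it ran from 175 to 489, with a median of 297 (304 ± 106, SD, n = 6). The 2 ends of the whole range were HF offspring, rat A37 with the lowest value and rat H3 with the highest, so the control values lay inside those of the other group.

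miR-16, the cluster partner of miR-15b and a miRNA present in most tissues, had the smallest relative spread of the 4 over all rats. Its signal ran from 3864 to 5503 in control offspring, with a median of 4785 (4659 ± 627, SD, n = 6). In HF offspring it ran from 3147 to 5101, with a median of 4386 (4240 ± 695, SD, n = 6). The groups overlapped, with 2 HF offspring below the lowest control rat. Rat H3 was inside the range for this miRNA, at 4489 and rank 7 of 12 from the highest.

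miR-195, of the chromosome 10 cluster, varied little among control offspring. Its signal ran from 4388 to 5548 there, with a median of 4886 (4917 ± 471, SD, n = 6). In HF offspring it ran from 2228 to 5428, with a median of 4305 (4133 ± 1143, SD, n = 6). Below the lowest control rat lay 3 of these rats, and rat H3, at 2228, was far below the next lowest value of 3702.

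miR-497, the cluster partner of miR-195, ran from 2543 to 3427 in control offspring, with a median of 3006 (2962 ± 355, SD, n = 6). In HF offspring it ran from 1620 to 3375, with a median of 2225 (2447 ± 725, SD, n = 6). These 6 rats fell apart into rats C25 and H1, at 3297 and 3375, and the 4 others, all below the lowest control rat. Rat H3 had the lowest value of all 12.

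**Figure D1:**
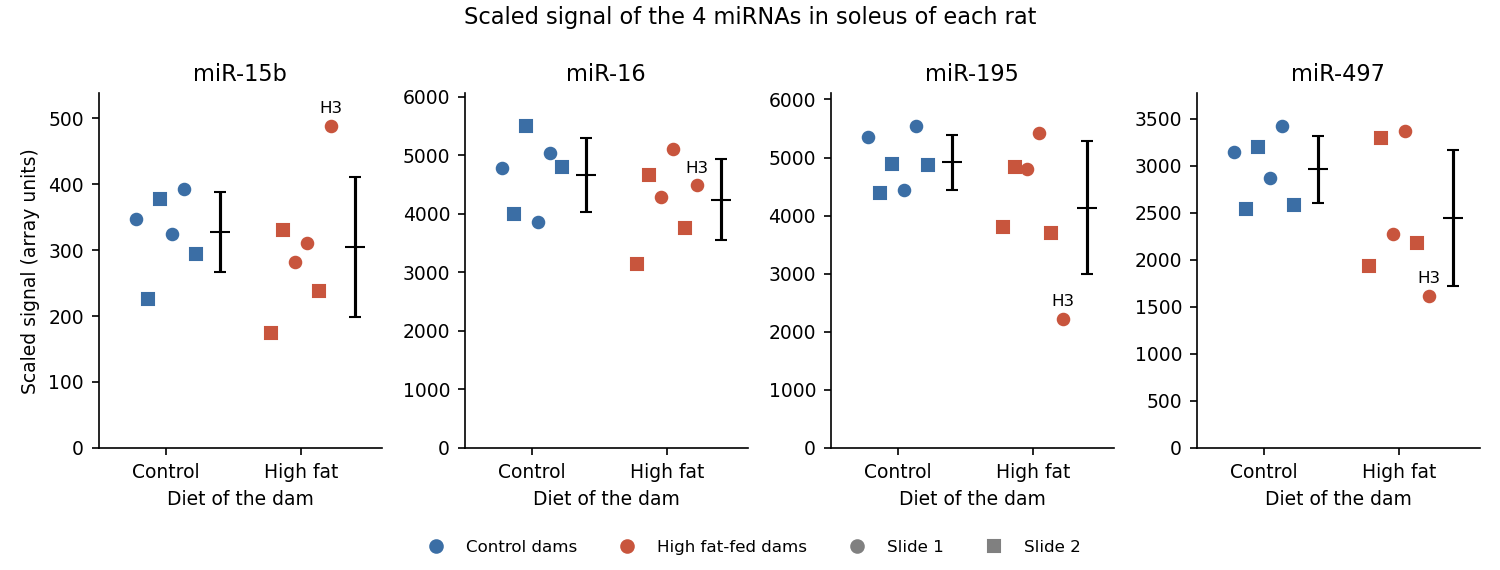
Scaled signal (array units, linear axis from 0) of miR-15b, miR-16, miR-195 and miR-497 in each of 12 rats, in separate panels with their own axes. Circles are rats of slide 1, squares rats of slide 2, and the bars beside the points are the mean and SD of 6 rats. Rat H3 is highest for miR-15b and lowest for miR-195 and miR-497.

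The error that the scanner software lists for a signal was smaller than these spreads, with a median of 7.71% for miR-15b, 7.76% for miR-16, 7.56% for miR-195 and 7.86% for miR-497. The coefficient of variation over the 12 rats was 26.4% for miR-15b, 15.01% for miR-16, 20.5% for miR-195 and 22.5% for miR-497. The SD within groups on the log2 scale was 0.41 for miR-15b, 0.23 for miR-16, 0.34 for miR-195 and 0.32 for miR-497, with a median of 0.33 over the 162 miRNAs detected on all arrays. For miR-195 the spread came largely from 1 rat, since its SD was 0.19 without rat H3.

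The diet of the dam was the comparison the study was made for. None of the 4 miRNAs passed the test between the groups in limma, in which 0% of the 193 tested miRNAs passed an adjusted p of 0.05 and 1.04% (2, both lower in high fat) an unadjusted one. The study's own kind of test, the methods' t-test, gave 2 unadjusted and 0 adjusted calls. All 4 differences were below 0, in a table in which 79.8% of the tested miRNAs were lower in HF offspring.

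For miR-497 the log2 difference, high fat minus control, was -0.32 (SE 0.19, 95% interval -0.73 to 0.09, limma adjusted p = 0.685). That interval spans a ratio of high fat to control from 0.603 to 1.07. For miR-195 it was -0.30 (SE 0.20, 95% interval -0.73 to 0.13, limma adjusted p = 0.685). Exact two-sided permutation tests over all assignments of 6 and 6 rats gave p = 0.119 for miR-497 and p = 0.134 for miR-195. Neither miRNA of the chromosome 10 cluster thus passed a test between the groups, and both 95% intervals included 0.

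For miR-15b the log2 difference was -0.15 (SE 0.23, 95% interval -0.64 to 0.34, limma adjusted p = 0.805). For miR-16 it was -0.14 (SE 0.15, 95% interval -0.46 to 0.18, limma adjusted p = 0.722). The exact permutation p was 0.545 for miR-15b and 0.301 for miR-16. The chromosome 2 cluster was thus close to the median log2 difference of all 193 tested miRNAs, which was -0.17, and the median of the 4 miRNAs was -0.23.

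The sign of 3 of the 4 differences turned with the scaling of the arrays. Without scaling the median of all tested miRNAs was 0.14, 20.7% of them were lower in high fat, and the log2 difference was 0.16 for miR-15b, 0.17 for miR-16, 0.0088 for miR-195 and -0.0096 for miR-497. Without rat H3 the difference of miR-195 was -0.05 and that of miR-497 was -0.13. The arrays were scaled anew for these values, so the shifts hold the new scaling as well as the rat. On slide 1, which holds rat H3, the difference was -0.39 for miR-195 and -0.44 for miR-497, and on slide 2 it was -0.21 and -0.20. miR-16 changed sign between the slides, from 0.03 on slide 1 to -0.31 on slide 2, and miR-15b was -0.01 and -0.29. Exact permutation within slides, over 400 assignments, gave p = 0.485 for miR-15b, 0.31 for miR-16, 0.14 for miR-195 and 0.145 for miR-497.

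**Figure D2:**
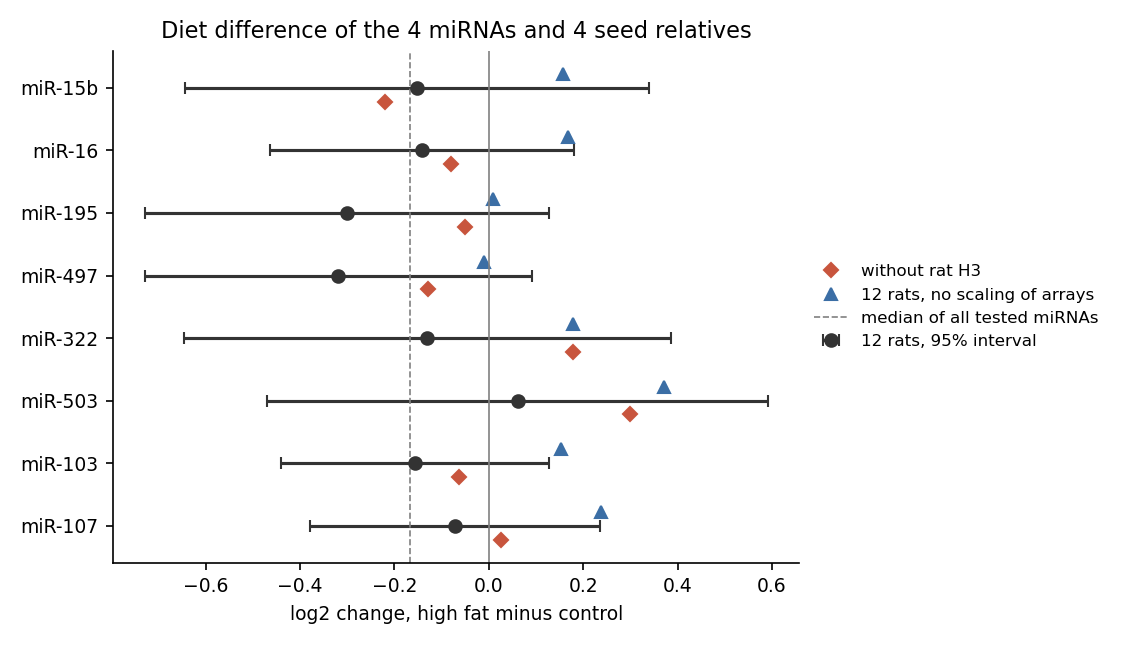
Log2 difference between HF and control offspring for the 4 miRNAs and 4 relatives. Circles with bars are the limma estimate and its 95% interval over 12 rats, and diamonds the estimate without rat H3, with the arrays scaled anew. Triangles are the estimate without scaling of the arrays, and the dashed line is the median of all 193 tested miRNAs (-0.17). All 8 intervals include 0, and without scaling only miR-497 lies below 0.

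The seed relatives did not pass the test either. miR-322, made from a cluster on chromosome X, had a log2 difference of -0.13 (SE 0.24) and a limma adjusted p of 0.879. For miR-503, of the same cluster and near the lower end of detection at 9.42 to 24.5 signal units, it was 0.06 (SE 0.25, limma adjusted p = 0.953). Of the 6 family miRNAs on the array, 5 were lower in high fat and 0 passed an unadjusted p of 0.05, with a median log2 difference of -0.15. In rat H3 miR-322 was 445 against 881 or more in the other rats. Without this rat, and with the arrays scaled anew, the differences of miR-322 and miR-503 were 0.18 and 0.30. The shifted-seed miRNAs, both made from introns of pantothenate kinase genes, were at -0.16 for miR-103 and -0.07 for miR-107.

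Ratios of miRNAs on 1 array do not depend on how that array is scaled, so they were compared between the groups as well. For miR-16 over miR-15b the log2 ratio of control offspring was 3.84 ± 0.21 (SD, n = 6), and that of HF offspring 3.85 ± 0.34 (SD, n = 6). The exact two-sided permutation p of that difference, 0.0090, was 0.961. The log2 ratio of miR-497 to miR-195 was -0.73 ± 0.11 and -0.75 ± 0.24 (SD, n = 6 each, exact permutation p = 0.881). For the mean of miR-195 and miR-497 over that of miR-15b and miR-16 it was 1.64 ± 0.12 and 1.48 ± 0.56 (exact permutation p = 0.794). Adjusted over these 3 ratios, each p was 0.961. The balance within and between the clusters thus did not differ detectably with the diet of the dam, and only changes of such a ratio between rats can be read, since probes differ in brightness.

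The ratio between the clusters was far more even over the rats than those means show. In 11 rats it lay between 1.46 and 1.87, and in rat H3 it was 0.36. Without rat H3 it was 1.70 ± 0.12 (SD, n = 5) in HF offspring, a difference from control of 0.06 (exact permutation p = 0.431). The ratio of miR-16 to miR-15b was also lowest in rat H3, at 3.20, against 3.58 to 4.17 in the other rats. Compared with the mean of the other 5 HF offspring, miR-15b was 0.91 higher on the log2 scale in rat H3 and miR-195 was lower, at -1.003.

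Co-variation over the 12 rats was tested for the 6 pairs of the 4 miRNAs, with permutation tests of 100000 draws adjusted over the 6 pairs. All miRNAs of an array share its scaling, and 10.9% of the 13041 pairs of miRNAs detected on all arrays had a Pearson r of at least 0.7 (median r 0.22). Of the 6 pairs 2 did, and they were the cluster partners. miR-195 and miR-497 had r = 0.87 (adjusted permutation p = 7.2e-04, Spearman's rho 0.90). miR-15b and miR-16 had r = 0.75 (adjusted permutation p = 0.0151, rho 0.63). With the 2 rats farthest from the median of the first-named miRNA left out, r was 0.81 for miR-195 with miR-497 and 0.75 for miR-15b with miR-16. The second pair missed an adjusted p of 0.05 when rat H10, H20 or A37 was left out (r = 0.65, 0.69 and 0.55).

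The 4 pairs from different clusters had lower Pearson coefficients, but by rho both pairs of miR-16 with the chromosome 10 miRNAs were above miR-15b with miR-16. The pair closest in sequence, miR-16 and miR-195, had r = 0.41 (adjusted permutation p = 0.281) but rho = 0.82 (adjusted permutation p = 0.00546). Its r was 0.31 without the 2 rats farthest from the median of miR-16, A37 and H20, which left rat H3 in. miR-16 and miR-497 had r = 0.62 (adjusted permutation p = 0.0596, rho 0.73), which was 0.44 without the same 2 rats. With only rat H3 left out, r was 0.74 for miR-16 with miR-195 and 0.73 for miR-16 with miR-497. miR-15b and miR-497 had r = 0.23 (adjusted permutation p = 0.559, rho 0.43), and miR-15b and miR-195 had r = -0.12 (adjusted permutation p = 0.695, rho 0.38). For both pairs the 2 farthest rats included H3, and without them r was 0.81 and 0.73. In the plots of these pairs rat H3 lies far below the line of the other rats.

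**Figure D3:**
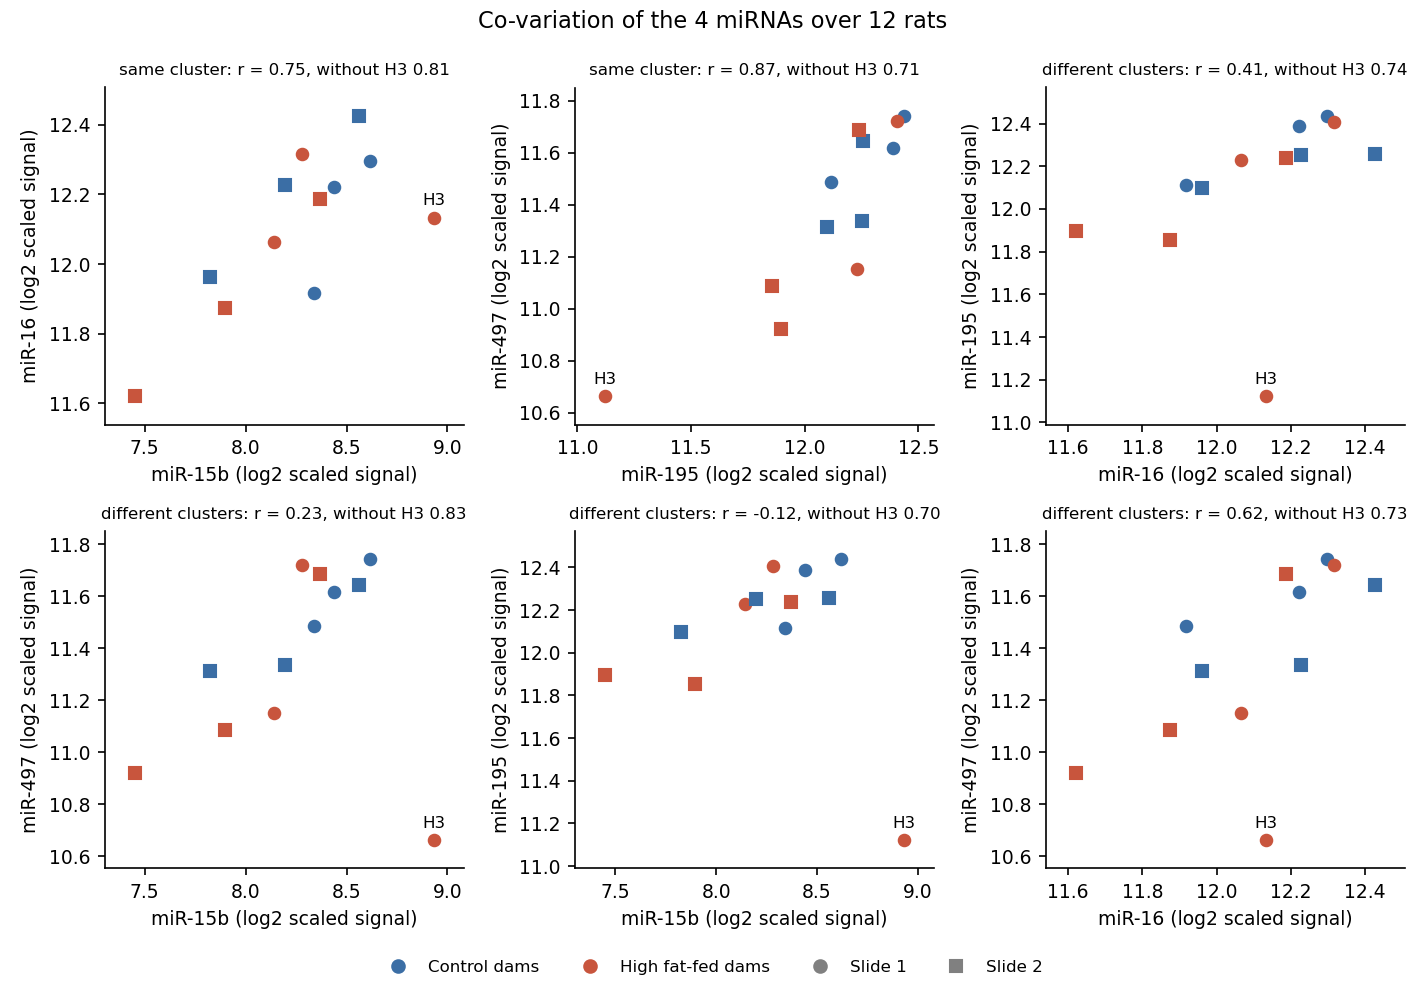
Log2 scaled signal of each pair of the 4 miRNAs over 12 rats, with Pearson's r over 12 rats and without rat H3 above each panel. Colours give the diet of the dam and symbols the slide. In the 4 panels of miRNAs from different clusters, rat H3 lies apart from a trend that the other 11 rats share.

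Without rat H3 same-cluster pairs no longer had the highest coefficients. All 6 coefficients lay between 0.70 and 0.83, with adjusted permutation p between 0.0045 and 0.0176 (n = 11 rats). The highest was miR-15b with miR-497, from different clusters, at 0.83. Rat H3 is the rat with the lowest ratio between the clusters, 0.36 against 1.46 to 1.87. Of all rats left out singly, its removal gave the highest coefficient for every pair from different clusters. The p-values without rat H3 do not allow for that choice of rat. For miR-195 with miR-497 r was 0.71, and for miR-15b with miR-16 it was 0.81. Of the 6 pairs 5 reached 0.7, which 8.59% of all pairs did. Without scaling of the 12 arrays 3 of the 6 did, beside 26.1% of all pairs. Other scalings of the 11 arrays gave coefficients from 0.33 to 0.95, all above 0, while the median r of all pairs moved from 0.01 to 0.64. The highest, 0.95 for miR-16 with miR-195, was without scaling, where that median was 0.61. With the median as the scaling factor miR-15b with miR-195, miR-16 with miR-195 and miR-195 with miR-497 had 0.34, 0.36 and 0.38, beside a median of 0.04. How closely the 4 miRNAs varied together in 11 rats thus depended on the scaling.

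Within slides and diet groups the pattern followed rat H3 only in part. On slide 2, which does not hold this rat, r lay between 0.83 and 0.97 for the 6 pairs. On slide 1, r was 0.92 for miR-195 with miR-497 and 0.18 for miR-15b with miR-16, and miR-15b with miR-195 reached -0.72. Within control offspring the 6 coefficients lay between 0.62 and 0.92. Of these 24 relations within a slide or a group of 6 rats, 0 passed after adjustment, the smallest exact permutation p being 0.0533 once adjusted. On slide 1 without rat H3 (5 rats) r was 0.99 for miR-16 with miR-195 and 0.68 for miR-195 with miR-497. For miR-15b with miR-16 it was 0.44 there, still below the 0.97 of this pair on slide 2.

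The spread of a within-array ratio is free of the scaling, but it depends on how much each miRNA varies by itself as well as on co-variation. For miR-195 with miR-497 the SD of the log2 ratio over 12 rats was 0.18, against an error of 0.16 from the listed errors of both signals. The median over all pairs of miRNAs was 0.46. For miR-15b with miR-16 it was 0.27, for miR-16 with miR-195 0.34, and for miR-15b with miR-195 0.57. Without rat H3 these became 0.16 for miR-195 with miR-497, 0.19 for miR-15b with miR-16, 0.12 for miR-16 with miR-195 and 0.22 for miR-15b with miR-195, and the median of all pairs was 0.38. Over 12 rats 25.2% of all pairs had a smaller spread than miR-16 with miR-195, the pair that matches at 19 of 21 bases. Without rat H3 0.843% had, and the spread of this pair was then below the listed error. Both miRNAs also varied little by themselves without rat H3. Their within-group SDs were 0.23 for miR-16 and 0.19 for miR-195, against a median of 0.29 over miRNAs detected on all arrays.

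**Figure D4:**
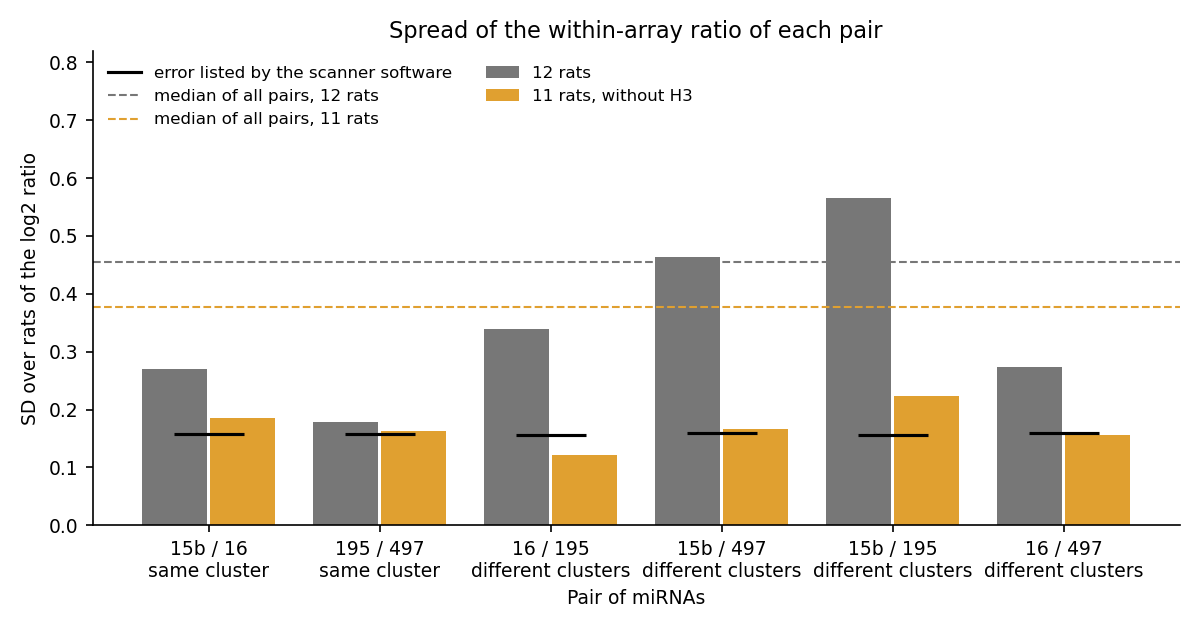
SD over rats of the within-array log2 ratio for each of the 6 pairs, over 12 rats (grey bars) and 11 rats without H3 (orange bars), on an axis from 0. Black dashes are the error that the listed errors of both signals give, and dashed lines the median of all pairs of miRNAs detected on all arrays. Without rat H3 all 6 bars lie well below the median of 0.38 and most are close to the listed error.

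The slides differed most for miR-15b. Its mean was 358 on slide 1 and 274 on slide 2, a log2 difference of -0.41 (exact permutation within groups p = 0.08, adjusted over the 4 miRNAs 0.32). For miR-16, miR-195 and miR-497 the slide difference was -0.11, -0.02 and -0.07, each with an adjusted exact permutation p of 0.87 or more.

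Other miRNAs that followed each of the 4 over the 12 rats were ranked by Pearson's r, as a description of values that share their scaling. miR-15b was most like miR-451 (r = 0.90), a miRNA of red blood cells, then miR-92a (0.83) and miR-25 (0.81), both of miR-17 family clusters. miR-16 was most like miR-99a (0.88), miR-125b-5p (0.85) and miR-181a (0.81). miR-195 was most like miR-196b (0.93), miR-140 (0.91) and let-7b (0.89), and miR-497 was most like let-7c (0.94), let-7b (0.94) and miR-140 (0.93). Leaving out rat H3 changed these lists. For miR-15b, miR-451 was then at rank 9 (r = 0.82), miR-25 at rank 17 (0.70) and miR-92a at rank 26 (0.67). For miR-195, miR-196b was then at rank 32 (0.53). miR-16 then stayed close to miR-125b-5p (r = 0.86, rank 1), miR-99a (0.83, rank 4) and miR-181a (0.74, rank 15). Without rat H3 the 3 closest were let-7b, miR-30b-3p and let-7e for miR-195 and miR-214, miR-99a and miR-130a for miR-497. The cluster partners had none of these in common, but let-7b was close to both. Its r was 0.82 with miR-195 (rank 1) and 0.86 with miR-497 (rank 8). Without rat H3 miR-15b and miR-497 had the same closest miRNA, the fibroblast miRNA miR-214, with r = 0.90 and 0.97.

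Muscle holds blood, vessels and connective tissue, and in a whole-muscle sample fewer cells of a type and less of a miRNA per cell cannot be told apart. Marker miRNAs of these cells were set beside the 4 miRNAs, over 12 rats and with no test. Of the red cell list 2 of 3 were on the array, and miR-451, which is made during red cell maturation, ran from 402 in rat A37 to 3054 in rat H3. These rats also had the lowest and the highest miR-15b. The coefficient with miR-451 was 0.90 for miR-15b, 0.70 for miR-16, -0.21 for miR-195 and 0.07 for miR-497. Without rat H3 it was 0.82, 0.75, 0.43 and 0.53, and the ratio between the clusters had -0.84. The other red cell miRNA, miR-144, ran from 41.5 in rat C51 to 273 in control rat A89, with 241 in rat H3. Its coefficients were lower, 0.69 with miR-15b (0.55 without rat H3) and -0.49 with the ratio between the clusters without rat H3. The summed red cell signal was 643 to 2636 in control and 458 to 3295 in HF offspring. The part of blood in the values of miR-15b and miR-16 was not tested.

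**Figure D5:**
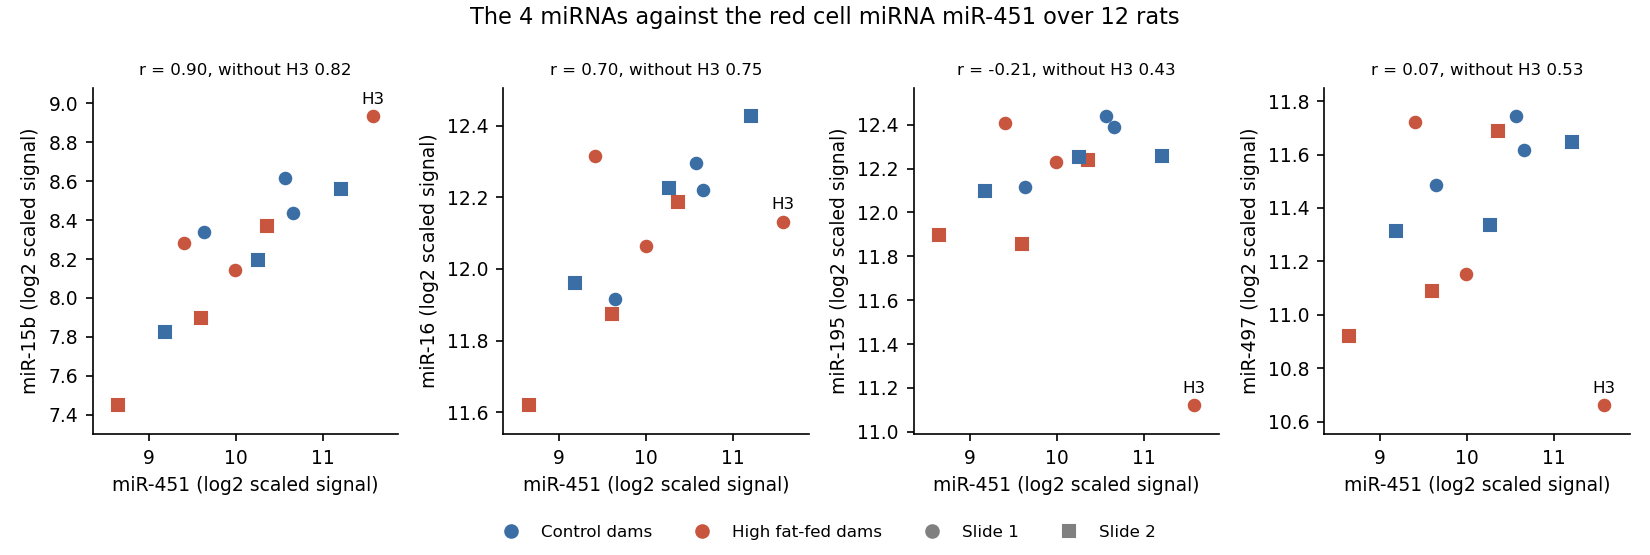
Log2 scaled signal of the 4 miRNAs against that of miR-451, a red blood cell miRNA, over 12 rats, with Pearson's r over 12 rats and without rat H3. Colours give the diet of the dam and symbols the slide. miR-15b follows miR-451 over the whole range, rat H3 included, whereas miR-195 and miR-497 are lowest in rat H3.

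Connective tissue and vessel lists were read in the same way. The summed signal of the fibroblast miRNAs miR-199a-3p, miR-199a-5p and miR-214 (3 of 3 detected in all rats) was 2755 to 7094 in control and 2342 to 7391 in HF offspring. It followed miR-497 with r = 0.92 (0.93 without rat H3) and miR-16 with 0.72 (0.76 without). For miR-195 r was 0.68 (0.58 without), and for miR-15b it was 0.44 (0.83 without). The sum was thus tied to miRNAs of both clusters, and its lowest value was in rat H3. The vessel list was 10082 to 12000 in control and 4863 to 11719 in HF offspring, lowest again in rat H3. Its coefficient with miR-195 was 0.84 and turned to -0.29 without rat H3. The leukocyte list (4 of 5 on the array) had its lowest sum in rat H3 too, at 1219 against 1411 to 1905. Only miR-150 was below the other rats there (304 against 503 or more), and miR-142-3p, miR-142-5p and miR-223 lay inside their range. The skeletal muscle list summed to 165393 to 289822 in control and 148139 to 261082 in HF offspring, with rat H3 inside the range at 245090. Its members went both ways in that rat, with miR-1 the highest of all (136123 against 106415 or less) and miR-206 the lowest (9354 against 30841 or more). The liver miRNA miR-122 was detected in 10 of 12 rats, at 406 or less, and at 22.6 in rat H3. The part of these cells in the values of the 4 miRNAs was not tested.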

How the data were processed

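For each array the authors deposited the signal intensity per miRNA, its error and a detection flag, extracted by Agilent's scanner software (version and genome build not given in the sources used here). Spots were combined and background subtracted by the authors' software, without normalization between arrays, and undetected miRNAs are listed at 0.1. The series value table held the same values (0 of 8124 differed).

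The 22 control rows were left out. To scale the arrays, signals were divided by their 75th percentile among the 162 miRNAs that every array detected (864 to 1911 units) and multiplied by their geometric mean. Values under 5.17 were raised to it before log2 was taken. Groups, taken from the labels, were compared in limma 3.58.1 (R 4.3.3) and p-values were adjusted (Benjamini-Hochberg) for the 193 miRNAs that 6 or more arrays detected. Single values were compared by exact two-sided permutation (462 assignments without rat H3, 400 within slides), and correlations by 100000 permutations, coded in numpy 2.4.6. Correlations within a slide or a diet group used all permutations of its 6 rats. Slides were read from the array barcodes, and the rats' label letters are unexplained. Precision is limited by having 12 arrays.

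The text names the 4 miRNAs, their seed relatives, marker miRNAs (skeletal muscle, red blood cells, leukocytes, vessels, fibroblasts and liver) and, per miRNA, the 3 with the highest r. Array names without an arm were matched to the RefSeq mature arm of the same number, and miR-208b-3p was taken for miR-208b. The 4 miRNAs and all lists were chosen with earlier results of these data known. Leaving out rat H3 for the markers, for other scalings and for ratio spreads was chosen after the values were seen. Alternatives covered scaling, floor, detection filter, slide and label letter as blocks, other tests and each rat left out.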

Additional observations from a re-analysis of the deposited data

Results flagged for a closer look

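A rat was singled out where its gap to the nearest of the 6 rats of its group was too large a part of the group's range by Dixon's 95% limit. Of 34 such groups examined (the 4 miRNAs, 4 relatives, 3 ratios and 6 marker sums in each diet group) 2 were singled out, and chance alone gives about 1 in 20 groups, or 1.7 here. Both were rat H3 of the HF group, with gaps of 0.64 and 0.81 of the range. They share a rat and 2 miRNAs, so they are not independent cases to set against that number. Marker sums were examined without log2, and on another scale the count could differ. Its log2 ratio of miR-16 to miR-15b was 3.20, against 3.82 to 4.17 in the other 5 rats. Its log2 ratio of miR-195 and miR-497 to miR-15b and miR-16 was 0.36, against 1.59 to 1.87.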

How the results depend on the processing

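Of the diet results, no miRNA passed an adjusted p of 0.05 under any of 26 alternatives (the unadjusted count ran from 1 to 15, with 15 without rat H1), and the 4 miRNAs kept an adjusted p of 0.422 or more. miR-497 stayed below 0 in all 26 (-0.42 to -0.0096), with an unadjusted limma p of 0.0359 without rat H1 and 0.0452 without rat C25. The sign turned for miR-15b (0.020 with all miRNAs in the 75th percentile, 0.026 with the median, 0.16 unscaled), miR-16 (0.029, 0.035, 0.17, and 0.10 with quantile normalization) and miR-195 (0.0088 unscaled). The ratio of miR-497 to miR-195 was 0.14 with quantile normalization. With each rat left out in turn, the log2 difference ran from -0.25 to 0.033 (miR-15b), -0.20 to -0.0097 (miR-16), -0.39 to -0.052 (miR-195) and -0.42 to -0.13 (miR-497). The ratios ran from -0.054 to 0.14 (miR-16 to miR-15b), -0.077 to 0.046 (miR-497 to miR-195) and -0.24 to 0.060 (between clusters).

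Of the coefficients, miR-195 with miR-497 kept an adjusted permutation p under 0.05 in all 20 alternatives (0.71 to 0.95). miR-15b with miR-16 lost it with all miRNAs in the percentile (0.55) and without rat H10, H20 or A37 (0.65, 0.69 and 0.55, in a range of 0.55 to 0.81). miR-15b with miR-195 turned to 0.15 unscaled and went from -0.12 to -0.64 with the median and -0.48 with quantile normalization (leaving out rats, -0.38 to 0.70). miR-15b with miR-497 turned to -0.053, -0.22 and -0.25 under that percentile, the median and quantile normalization (-0.10 to 0.83). With the median and quantile normalization, miR-16 turned to -0.44 and -0.67 with miR-195 and to -0.16 and -0.39 with miR-497. Unscaled these were 0.67 and 0.76, with adjusted p under 0.05, as had miR-16 with miR-497 in deviations from slide and diet means (0.72). Leaving out rats gave 0.22 to 0.74 and 0.43 to 0.73, the highest without rat H3. The cause was not tested. No paired analysis was possible because the labels give the groups no shared replicate numbers.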

Other observations

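Among 175 coefficients of the 4 miRNAs and their 3 ratios with marker miRNAs, those of the ratios with slow-fibre and connective tissue markers were picked after their values were seen. The within-array ratio of miR-16 to miR-15b followed miR-499 with r = 0.86 over 12 rats and 0.79 without rat H3. With miR-208b-3p it was 0.90 and 0.78. The other muscle miRNAs listed had -0.23 (miR-1), 0.06 (miR-133a), -0.02 (miR-133b) and 0.70 (miR-206) with this ratio over 12 rats. Without rat H3 they had 0.51, 0.66, 0.38 and 0.17. With the red cell miRNA miR-451 the same ratio had -0.73, and -0.59 without rat H3. The ratio between the clusters had 0.94 with miR-499 over 12 rats but 0.21 without rat H3. The ratio of miR-497 to miR-195 followed the summed fibroblast miRNAs with r = 0.42 over 12 rats and 0.79 without rat H3. These are descriptions over rats that share a slide, a scaling and a marker signal, and no test was made.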
